A study of Mus musculus with 7 samples.

Results

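The G allele of PAXIP1-AS1 was compared with its C allele in the prefrontal cortex (PFC) of female mice, using the 2 Alt and the 2 Ref libraries of an RNA-seq series that holds 7 libraries in all. Every mouse was a wild-type female C57BL/6 and received a recombinant adeno-associated virus (rAAV) by bilateral stereotaxic injection into the PFC. Ref mice received the C allele of human PAXIP1-AS1 and Alt mice the G allele, while the 3 Ctr libraries came from mice given empty rAAV. All constructs carried an EGFP reporter and the human synapsin promoter, which restricts transcription of the insert to neurons. The mice still had their own Paxip1 gene and glia that the promoter does not target, and PAXIP1-AS1 has no known mouse homologue. For the sequenced mice, neither the age nor whether a library came from 1 animal or from pooled animals was given in the sources used here, so the p-values below measure the spread between these libraries, which may be technical. All 4 libraries were chosen by their allele label, and a gene was said to separate the alleles when both Alt libraries lay on one side of both Ref libraries and edgeR's quasi-likelihood test gave an unadjusted p under 0.05.

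PAXIP1-AS1 is a human long noncoding RNA named for its neighbour PAXIP1, whose protein works with a histone methyltransferase complex. Long noncoding RNAs can act far from their own locus by binding proteins, and ZGPAT, a zinc finger repressor of transcription, is the partner examined in the study. The PFC holds excitatory and inhibitory neurons together with astrocytes, microglia and oligodendrocytes, and oligodendrocytes wrap axons in myelin, whose proteins are made in these cells rather than in neurons.

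The total count was 19731791 and 19801971 in Ref 1 and Ref 2, and 16655697 and 18673575 in Alt 1 and Alt 2. Levels are given as CPM, counts per 1000000 counts of a library after TMM scaling, and 17254 of 55416 genes had enough counts to be tested, 14492 of them protein-coding. The Alt libraries differed from each other more than the Ref libraries did, and a chi-square statistic divided by its degrees of freedom was 56.32 for the Alt pair against 24.35 for the Ref pair. Alt 1 stood apart. Its deviations from the mean of the 4 libraries rose with gene length (Spearman's rho across genes 0.329), while rho was -0.0423 in Alt 2, -0.349 in Ref 1 and -0.248 in Ref 2. The ribosomal RNA Rn18s took 0.97% of counts in Alt 1, 0.191% in Alt 2, and 0.0752% and 0.0939% in Ref 1 and Ref 2. Cortical identity was present in every library: the 14 excitatory cortical markers summed to 6564 and 6505 CPM in Ref and to 6849 and 7011 CPM in Alt. The transcript carried by the virus was not analysed here.

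Genes separated the alleles in both directions. In Alt, 1127 of the tested genes were higher than in Ref (6.53% of those tested) and 1510 were lower (8.75%). The excess of lower genes depended on scaling, with 1410 higher and 1383 lower in DESeq2, 1318 and 1348 under RLE normalization, 1322 and 1351 under upper quartile normalization and 1110 and 1078 after the correction for gene length described below. Leaving out the test, both Alt libraries lay above both Ref libraries in 21.6% of genes and below them in 26.1%. A 2-fold difference was passed by 159 of the higher genes (0.922% of those tested) and by 583 of the lower genes (3.38%). At an FDR of 0.05, edgeR's quasi-likelihood test called 1 gene (0.0058%), the myelin basic protein gene Mbp, whereas 2680 genes had an unadjusted p under 0.05 and DESeq2 called 449 genes at that FDR. The median log2 fold change over all tested genes was -0.04, and changes in this text are Alt minus Ref on the log2 scale. The counts depended on single libraries. Without Alt 1, 435 genes were higher and 807 lower, and 292 and 553 of the original genes were among them. That fit tests more genes, and of the 17254 genes above it called 425 higher (2.46%) and 806 lower (4.67%), the shares against which counts without Alt 1 are read below. After the length correction these shares were 6.43% and 6.25%. Without Ref 1 the counts were 246 and 544, and without Alt 2 they were 2190 and 3259. At 2 libraries against 2, an exact two-sided permutation test of a single gene cannot go below 0.333.

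Separation followed gene length. Length here is the value deposited with the counts, which can be far below the span of a gene in the genome. Mbp, for example, is listed at 8469 bases and spans chr18:82493271-82603762. When the tested genes were ordered by length and cut into 8 equal groups, 1.95% of the shortest group (56 to 1519 bases) were higher in Alt and 14.0% were lower. In the longest group (8754 to 123179 bases) 24.7% were higher and 1.07% lower. The median length was 8499 bases for the higher genes and 2643.5 bases for the lower genes, against 4051 bases over all genes tested. Both Alt libraries showed this slope, to different degrees. Alt 1 deviated from the Ref mean by a median of -0.62 log2 CPM in the shortest group and 0.44 in the longest, and Alt 2 by -0.22 and 0.14. After a correction for gene length, 4.08% of the shortest group were higher and 6.95% lower, and 8.90% and 5.56% of the longest. Gene length moves with the allele in these libraries, and its part in the single genes below was not tested beyond this correction.

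**Figure D1:**
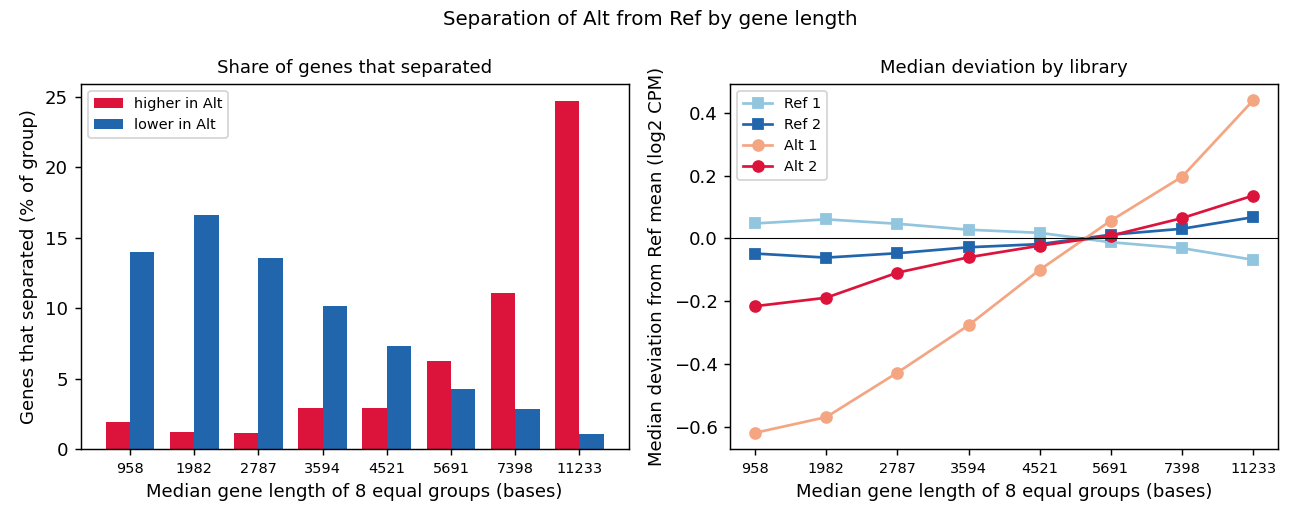
Left, the percentage of genes that separated, higher (red) or lower (blue) in Alt than in Ref, in 8 equal groups of the tested genes ordered by length (x axis, median length in bases). Right, the median deviation of each group from the Ref mean in log2 CPM for each Ref and Alt library; Alt 1 runs from -0.62 to 0.44, Alt 2 from -0.22 to 0.14, and the Ref libraries stay within 0.07 of 0.

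A smaller set of genes separated in the same direction in the fit with all libraries, in each of the 4 fits that left out 1 Alt or Ref library, and after the length correction. It held 122 higher genes (0.707% of those tested, 109 of them protein-coding) and 282 lower genes (1.63%, 264 protein-coding). These are called the stable genes below. They still differed in length, with medians of 9357.5 and 2369.5 bases. The higher ones include the liver transcripts Alb and Mup3, Rn18s, Malat1, Lars2 and the mitochondrial transfer RNAs mt-Te and mt-Tw. Passing these fits therefore does not tie a gene to the allele. With the exception of Mbp, every named gene that separated had an FDR from 0.0615 to 0.32.

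Myelin genes fell in both Alt libraries. Mbp, which encodes the myelin basic protein that compacts the myelin sheath (ENSMUSG00000041607.18), stood at 1332 and 1381 CPM in Ref 1 and Ref 2 and at 523 and 584 CPM in Alt 1 and Alt 2. The groups lay far apart, with the Ctr libraries between them at 736 to 820 CPM. Mbp fell by 1.29 ± 0.16 on the log2 scale (SE), which is 2.45-fold, with an FDR of 0.0481 in edgeR's quasi-likelihood test. The FDR was 2.84e-14 with DESeq2 and 0.00218 after the length correction, but 0.0648 under RLE normalization, 0.0551 under upper quartile normalization, 0.417 with the 4 Alt and Ref libraries alone, 0.187 to 0.248 with 1 Ctr library left out, 0.0559 without Alt 1, 0.0742 without Ref 1 and 0.252 without Ref 2, which ends the call. In each of these fits, every Alt library kept lay below every Ref library kept. The 4 CPM values above already fix that order, so it adds nothing to the test. Mag, the myelin-associated glycoprotein of the membrane facing the axon (chr7:30598601-30614298 as the table lists it), was at 96.8 and 89.9 CPM in Ref and at 38.2 and 40.2 CPM in Alt, with Ctr at 49.4 to 53.9 CPM. Both Alt values were below those of every other library. Mag fell by 1.25 ± 0.17 (edgeR FDR 0.0615).

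Transcripts of other myelin proteins fell with them. Mobp, another basic protein of compact myelin, was at 529.7 and 648.7 CPM in Ref and 329.4 and 259.8 CPM in Alt, and Opalin, an oligodendrocyte membrane glycoprotein, at 14.1 and 15.5 against 5.14 and 6.08 CPM. In each gene the Alt pair overlapped the range of Ctr or lay below it, and the Ref pair lay above every Ctr library. Mobp fell 2.0-fold and Opalin by 1.40 ± 0.31. Cnp, the myelin phosphodiesterase, fell 1.78-fold, Mal 1.82-fold, Mog 1.75-fold, the tight junction gene Cldn11 1.69-fold and the iron carrier Trf 1.64-fold.

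Of the 15 mature oligodendrocyte genes tested, 9 were lower, 0 were higher and all 15 had a negative change, with a median of -0.81 against -0.04 over all genes. Their summed level was 4502 and 5566 CPM in Ref, 3249 and 2607 CPM in Alt, and 2678 to 3793 CPM in Ctr, so the Ref pair was the highest of all libraries and the Alt pair lay within or just below the Ctr range. In this list Alt 2 departed from the Ref mean more than Alt 1 did, with medians of -0.94 and -0.63, the reverse of the order seen for length. Without Alt 1, 13 of the 15 genes were lower. After the length correction 7 were lower and the median was -0.57, and 5 (Mbp, Mag, Mobp, Opalin and Cnp) were among the stable genes. In bulk tissue fewer oligodendrocytes and less RNA in each cannot be told apart. Among 9 precursor markers 3 fell, namely Bcas1, Olig1 and Sox10, of which Bcas1 (80.5 and 88.4 CPM in Ref, 49.8 and 42.9 CPM in Alt) is on in cells that are beginning to myelinate and Olig1 and Sox10 are transcription factors of the lineage at every stage. The list's median was -0.18, and after the length correction 1 of the 9 (Bcas1) was lower. Septin4, a cytoskeletal septin found in glia, was at 100.3 and 95.5 CPM in Ref and 48.8 and 51.1 CPM in Alt, a 1.96-fold fall that was the third smallest p among the lower genes.

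**Figure D2:**
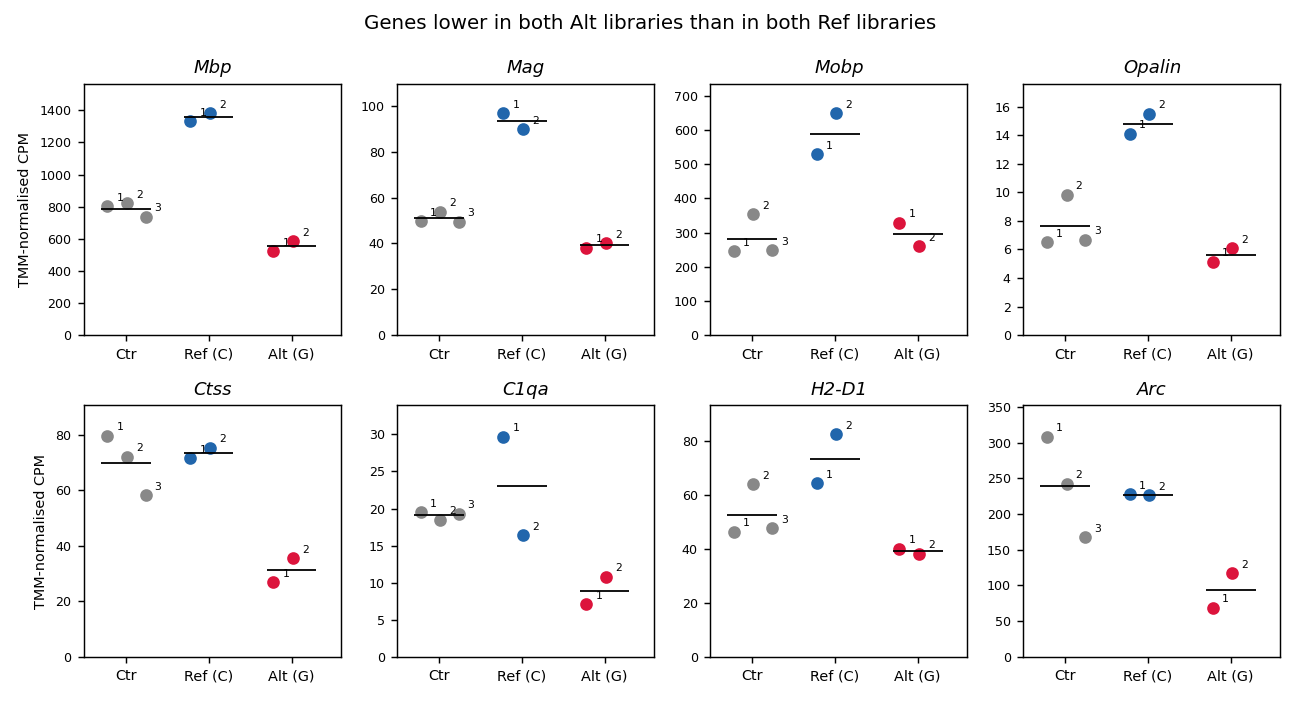
TMM-normalised CPM (y axis, from 0) of 8 genes in the 3 Ctr, 2 Ref and 2 Alt libraries; each point is 1 library with its replicate number, and the black line is the group mean. The 2 Alt libraries lie below the 2 Ref libraries in every panel, and for Mbp, Mag, Mobp and Opalin the Ref libraries also lie above the Ctr libraries.

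Genes of microglia, the phagocytes of the brain, were lower as well. Ctss, the lysosomal protease cathepsin S, was at 71.5 and 75.4 CPM in Ref and at 26.9 and 35.6 CPM in Alt, below the Ctr range of 58.2 to 79.7 CPM. It fell 2.35-fold, and it was not on the marker list. The subunits of complement component C1q moved together: C1qa fell by 1.36 ± 0.31, C1qc by 0.86 ± 0.25 and C1qb by 0.78 ± 0.29. Of 12 microglial markers tested 5 were lower, the 3 C1q genes and Trem2 among them, and 0 higher, the median was -0.48, and the summed level was 619.7 and 597.7 CPM in Ref against 477.8 and 537.0 CPM in Alt. These are short genes, and after the length correction the median was -0.11 with 3 genes lower. Without Alt 1, 2 of the 12 genes were lower.

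Astrocyte markers gave a mixed picture. Aldoc, a glycolytic enzyme of astrocytes, was at 754.9 and 626.5 CPM in Ref and at 278.6 and 446.8 CPM in Alt. S100b, a calcium-binding protein, was at 82.5 and 83.8 CPM in Ref and at 35.4 and 59.2 CPM in Alt. Both fell and are among the stable genes. Glul, which converts glutamate to glutamine, and the growth factor receptor Fgfr3 had changes of -0.42 and -0.39, Fgfr3 with an unadjusted p of 0.0487 in edgeR. Fgfr3 did not pass with DESeq2, under another normalization or without any 1 of the Ctr or Ref libraries, and Glul did not pass after the length correction, with the 4 Alt and Ref libraries alone or without Ref 2. The 12 markers had 4 lower, 0 higher and a median of -0.22, while their summed level overlapped between the groups (9520 and 11220 CPM in Ref, 12890 and 9946 CPM in Alt). Without Alt 1, 2 were lower and the median was -0.10, and Glul and Fgfr3 did not separate.

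A few interferon and antigen presentation genes fell. H2-D1, a class I histocompatibility gene, was at 64.3 and 82.4 CPM in Ref and at 40.0 and 38.2 CPM in Alt. It fell by 0.91 ± 0.21, and B2m, the light chain of the same complex, by 0.56 ± 0.21. Ifit3b, an interferon-induced gene, and the lymphoid factor Irf4 were also lower, Irf4 with 0 and 0.0558 CPM in Alt, too few counts for a fold change. With all libraries these 4 of 44 tested genes separated, and 0 were higher, a share close to the 8.75% of all genes that were lower. That share moved in the fits that left out an Alt library. The list's median was -0.51, with -0.36 in Alt 1 and -0.46 in Alt 2, but Ctr 1 and Ctr 3 also lay below Ref, at -0.27 and -0.21, and the median was -0.24 after the length correction. B2m and Ifit3b did not separate after the length correction. H2 genes share near-identical sequence, so reads may have been split between them.

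Genes of energy supply and protein synthesis were lower in large numbers, and here Alt 1 departed farther from Ref than Alt 2 did. Uqcr11, a small subunit of respiratory complex III, was at 11.3 and 8.38 CPM in Ref and at 0 and 1.12 CPM in Alt. Ndufa3 of complex I was at 8.61 and 4.81 CPM in Ref and 0.52 and 1.78 CPM in Alt, and Atp5o of the ATP synthase at 32.7 and 24.7 against 6.70 and 13.4 CPM. Alt 1 was the lowest library for each of these genes. Cox4i1, a subunit of cytochrome c oxidase, fell by 1.07 ± 0.25 and Uqcrh of complex III by 1.15 ± 0.25. Of 39 nuclear genes of complex I, 21 were lower and 0 higher, with a median of -0.75. Of 45 genes of complexes II to V, 28 were lower and 0 higher, with a median of -0.72.

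Cytosolic ribosomal protein genes had 51 of 80 members lower and 0 higher, with a median of -0.64. Rpl7a, a protein of the large subunit, was at 26.8 and 20.3 CPM in Ref and at 1.69 and 6.02 CPM in Alt, and Rpl11, which also binds the p53 regulator Mdm2, at 78.1 and 52.3 against 21.1 and 32.7 CPM. The Alt values lay below both Ref values in each, although Rpl7a in Ctr 2, at 5.91 CPM, was no higher than in Alt 2. Many ribosomal protein genes have near-identical pseudogenes that can take or give reads. In the mitochondrial ribosome 21 of 77 genes were lower (median -0.52), among them Mrpl20 and Mrps33. The proteasome had 11 lower genes and 1 higher gene of 38 (median -0.44), Psmd9 and Psmb3 falling and Psmd1 rising. The spliceosome had 10 lower of 32 (median -0.42), led by Snrpc, a protein of the U1 particle.

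These lists hold short genes, and their size depended on Alt 1 and on the length correction. The median in Alt 1 and Alt 2 was -1.23 and -0.43 for complex I, -1.16 and -0.31 for complexes II to V, and -1.06 and -0.31 for the cytosolic ribosome. Without Alt 1, 8, 11 and 21 genes of these lists were lower. After the length correction 13, 19 and 28 were lower and the medians were -0.39, -0.41 and -0.29, and none was higher. Stable genes numbered 6 of 39, 8 of 45 and 16 of 80. In the mitochondrial ribosome 6 of 77 genes were lower without Alt 1 and 13 after the length correction. The proteasome had 3 lower and 1 higher without Alt 1, and 5 lower and 2 higher after the length correction, with a median of -0.16. The spliceosome had 1 lower gene of 32 without Alt 1, against 4.67% of all genes in that fit, and 4 lower and 1 higher after the length correction, with a median of -0.15. Of the 13 protein-coding genes of the mitochondrial genome, which encode further respiratory subunits, 2 were higher (mt-Nd5 and mt-Nd3), 1 was lower (mt-Atp6) and the median was -0.03. After the length correction 6 were higher and the median was 0.41.

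Several single genes fell without a list around them. Psenen, a subunit of the gamma-secretase complex that cuts the amyloid precursor and Notch, was at 12.04 and 12.2 CPM in Ref and at 1.82 and 3.68 CPM in Alt. The 3 Ctr libraries, at 10.1 to 13.4 CPM, sat with Ref. It fell by 2.13 ± 0.35. Sgf29, a reader of histone methylation, fell by 2.52 ± 0.47, the RNA polymerase II subunit Polr2g by 1.42 ± 0.27, the sulfur transferase Mpst by 1.45 ± 0.28, the endoplasmic reticulum prolyl isomerase Fkbp2 by 1.86 ± 0.37, the splicing factor Srsf5 by 1.02 ± 0.20 and Elob, part of the elongin complex, by 1.14 ± 0.23. The widest gaps among lower genes belonged to weakly expressed ones, such as Dhrs11 (2.71 and 2.69 CPM in Ref, 0 and 0.112 CPM in Alt) and Nudt14 (3.29 and 2.38 against 0 and 0.279 CPM), together with G0s2, an inhibitor of lipolysis. The immunoglobulin gene Igkv12-44 was at 0.58 and 3.46 CPM in Ref and 0 in both Alt libraries, while all immunoglobulin genes summed to 1093 and 10714 counts in Ref and 2453 and 958 counts in Alt, so that these libraries overlapped.

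Arc, an immediate early gene whose protein acts at active synapses, was at 227.6 and 226.6 CPM in Ref and at 69.1 and 116.8 CPM in Alt, with Ctr at 167.2 to 308.2 CPM. Both Alt libraries were below all others. Arc fell by 1.29 ± 0.28, and it was the 1 lower gene among 21 immediate early genes, of which Homer1 was the 1 higher gene. Both counts are under the shares of all tested genes, 8.75% lower and 6.53% higher. The list had a median of -0.02, made of -0.64 in Alt 1 and 0.27 in Alt 2. Single targets of the glucocorticoid receptor fell too. Tsc22d3, which carries much of the anti-inflammatory response to glucocorticoids, was at 137.4 and 98.8 CPM in Ref and 38.3 and 62.0 CPM in Alt, with Ctr at 49.7 to 97.5 CPM. The kinase gene Sgk1, which oligodendrocytes also express, was at 165.8 and 183.7 CPM in Ref and 76.7 and 96.3 CPM in Alt, with Ctr at 69.6 to 134 CPM. In both genes the Ref pair lay above every Ctr library and Alt overlapped Ctr. With Dbp, an output gene of the circadian clock (79.2 and 49.6 against 24.7 and 35.4 CPM), they were the 3 stable genes of a list of 24 clock and glucocorticoid genes that had 5 lower, with Fkbp5 and Cdkn1a as the others, and 1 higher, Clock itself (99.4 and 121.9 CPM in Ref, 214.2 and 136.9 CPM in Alt). The list's median was -0.05, from -0.20 in Alt 1 and 0.07 in Alt 2, and without Alt 1, 3 were lower. Clock separated neither without Alt 1 nor after the length correction.

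Inhibitory interneuron markers had 5 of 14 lower and 0 higher, with the peptide genes in the lead. Sst, the somatostatin gene, was at 57.9 and 52.3 CPM in Ref and at 18.0 and 33.6 CPM in Alt, and Npy, the neuropeptide Y gene, at 9.87 and 9.62 against 4.94 and 5.19 CPM. Both Alt values lay below every Ctr and Ref value. Sst fell by 1.09 ± 0.28, Npy by 0.94 ± 0.29, Cck by 1.08 ± 0.35 and Pvalb, the calcium buffer of fast-spiking cells, by 1.01 ± 0.39. Lamp5, a marker of neurogliaform cells, completes the 5. The list's median was -0.38 but rested on Alt 1: it was -0.79 in Alt 1 and 0.02 in Alt 2, and 2 genes were lower without Alt 1. It was -0.11 without Ref 1, and after the length correction 3 genes were lower and the median was -0.18. Among 15 neuropeptide and growth factor genes 4 were lower (Sst, Npy, Cck and the enkephalin gene Penk) and 2 higher, Igf1 and Crh, the corticotropin-releasing hormone gene, with a median of -0.24. Without Alt 1, 2 were lower and 1 higher, and after the length correction 2 were lower and 3 higher and the median turned to 0.04. Of 10 striatal markers, present should the dissection reach that region, 2 were lower (Penk and Ppp1r1b), and 0 after the length correction. Their median was -0.72, from -0.92 in Alt 1 and -0.14 in Alt 2, and the summed level was 208.7 and 153.8 CPM in Ref and 164.1 and 160.1 CPM in Alt.

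Among the higher genes Thbs1 had the smallest p. It encodes thrombospondin 1, a secreted matrix protein that astrocytes use to promote synapse formation (chr2:117942357-117957614 in the table). It was at 3.39 and 2.74 CPM in Ref and at 8.52 and 14.1 CPM in Alt, with Ctr between them at 4.32 to 6.25 CPM. Thbs1 rose by 1.88 ± 0.38, or 3.68-fold, and by 1.85 after the length correction. C1ql3, a secreted protein of excitatory synapses that resembles C1q, was at 116.6 and 119.6 CPM in Ref and at 240.1 and 182.4 CPM in Alt. It rose 1.79-fold, and with a listed length of 2535 bases it is shorter than most genes that rose. Neither gene overlapped with any Ctr library.

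Signalling genes of neurons followed. Nexmif, an X-linked gene needed for neurite growth, was at 54.5 and 70.9 CPM in Ref and at 149.4 and 102.5 CPM in Alt, and rose by 1.01 ± 0.22. Dgkb, a diacylglycerol kinase, rose by 0.90 ± 0.19, the deubiquitinase gene Cyld by 0.84 ± 0.19, the chloride transport kinase gene Wnk3 by 0.90 ± 0.20 and Rabgap1l, a regulator of Rab proteins, by 0.86 ± 0.20. In all of these Alt 1 was the highest library and Alt 2 the second highest. All were among the stable genes. Apart from liver transcripts, described last, the widest gaps among higher genes were those of weakly expressed genes: the magnesium channel gene Trpm6 was at 0.29 and 0.414 CPM in Ref and 3.06 and 2.79 CPM in Alt, and the transcription factor gene Tbx15 at 0.822 and 1.03 against 5.01 and 4.96 CPM. Srp54b had a wide gap too (5.61 and 6.26 against 29.2 and 24.6 CPM), but it ranged from 1.81 to 26.5 CPM in Ctr and has near-identical copies.

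**Figure D3:**
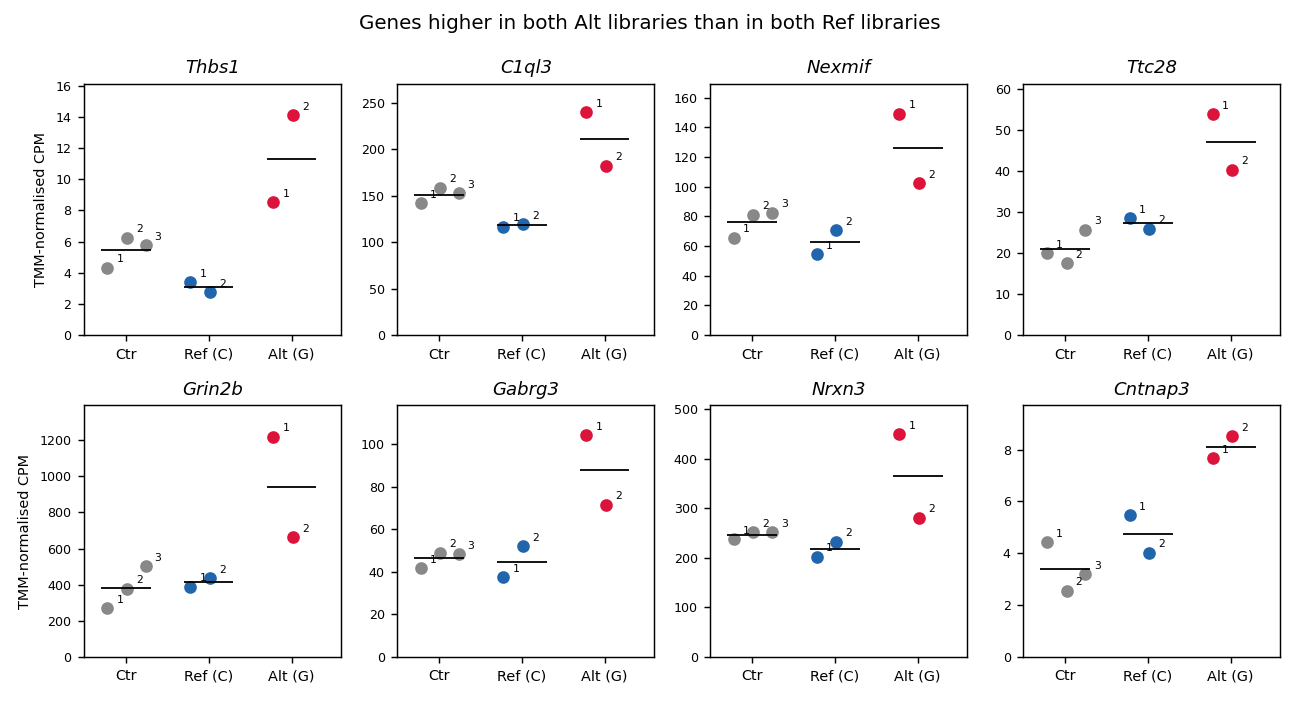
TMM-normalised CPM (y axis, from 0) of 8 genes in the 3 Ctr, 2 Ref and 2 Alt libraries; each point is 1 library with its replicate number, and the black line is the group mean. The 2 Alt libraries lie above the 2 Ref libraries in every panel; Cntnap3 did not pass the test (edgeR unadjusted p 0.0691).

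Synaptic adhesion molecules hold both sides of a synapse together. Of 61 tested, 20 were higher and 0 lower, with a median of 0.36. The stable members were Ncam2, Tenm1, Nrxn3 and Slitrk4. Nrxn3, a presynaptic neurexin, was at 201.6 and 232.6 CPM in Ref and at 448.7 and 280.4 CPM in Alt, and Ncam2, a neural cell adhesion molecule, at 131.1 and 186.7 against 382.7 and 244.2 CPM. Tenm1, a teneurin, was at 39.1 and 47.4 CPM in Ref and 138.9 and 61.8 CPM in Alt. Alt 1 was the highest of all 7 libraries in each, and Alt 2 was above both Ref libraries and, by a smaller margin, above the highest Ctr library. Without Alt 1, 8 of the 61 genes were higher, and after the length correction 14 were higher and the median was 0.23, while the list's median was 0.56 in Alt 1 and 0.15 in Alt 2.

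Cadherins outside the gene clusters had 8 of 41 higher and 0 lower, with a median of 0.40, among them Pcdh19, Cdh18, Cdh4 and the planar polarity cadherin Celsr2. Without Alt 1, 1 of the 41 was higher, a share near the 2.46% of all genes in that fit, and after the length correction 5 were higher and the median was 0.20. The clustered protocadherins, whose many isoforms give neurons their surface identity, had 9 of 53 higher and 1 (Pcdhgb4) lower. Pcdhga3 rose from 11.03 and 12.5 to 26.4 and 20.7 CPM. The isoforms of a cluster share their last exons, so reads there may not belong to 1 isoform. The list's median was 0.19, from 0.47 in Alt 1 and 0.02 in Alt 2, and without Alt 1, 2 were higher.

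A minority of glutamate receptor genes rose. Grin2b, the NMDA receptor subunit of slow kinetics, was at 388.2 and 435.7 CPM in Ref and at 1219 and 663.8 CPM in Alt. Grin2a, the subunit that gives faster currents, was at 148.8 and 211.1 CPM in Ref and at 443.5 and 277.1 CPM in Alt. They rose by 1.19 ± 0.30 and 1.00 ± 0.24, and the metabotropic receptor Grm5 by 0.66 ± 0.19. Cacng7, which escorts AMPA receptors to the membrane, moved the other way, from 164.9 and 166.1 to 87.4 and 121.1 CPM. In all, 7 of 35 glutamate receptor genes were higher and 1 was lower, with a median of 0.29. Without Alt 1, 5 were higher and 1 lower and the median was 0.12.

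In the GABA receptor genes the 2 Alt libraries had nearly the same median, 0.38 in Alt 1 and 0.34 in Alt 2. Of 14 tested, 5 were higher and 0 lower, with a median of 0.37, and 12 had a positive change. Gabrg3 was at 37.6 and 52.1 CPM in Ref and 104.3 and 71.6 CPM in Alt. Gabrb1 was at 208.6 and 270.5 CPM in Ref and 587.8 and 312.5 CPM in Alt. Both encode subunits of the receptor's chloride channel, and both Alt values lay above every Ctr value. They rose by 0.97 ± 0.22 and 0.91 ± 0.27, and Gabra2 and Gabrb2 were also among the 5. After the length correction 7 of the 14 were higher and the median was 0.33. Without Alt 1, 2, Gabrg3 among them, were higher and the median was 0.35. The Ref libraries lay apart in this list, and the median was 0.18 without Ref 1 and 0.52 without Ref 2. Gabrd, a subunit of receptors outside the synapse, was at 40.8 and 32.3 CPM in Ref and at 15.0 and 40.5 CPM in Alt and did not pass.

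Ion channel genes had 27 of 108 higher and 6 lower, with a median of 0.25 that was 0.36 in Alt 1 and 0.04 in Alt 2. Without Alt 1, 7 were higher and 4 lower. Cacna2d1, an auxiliary calcium channel subunit, rose by 0.71 ± 0.18, the potassium channel gene Kcnb2 by 0.95 ± 0.25 and the sodium channel gene Scn7a by 1.43 ± 0.34, while Kcnab3, a potassium channel accessory subunit, fell 2.83-fold. The vesicle release machinery had 10 of 45 higher and 6 lower with a median of 0.10, and 1 higher and 2 lower without Alt 1, shares near those of all genes in that fit (2.46% and 4.67%). The postsynaptic density had 6 of 34 higher and 0 lower. Its median of 0.24 was 0.10 without Alt 1 and turned to -0.08 after the length correction. Under that correction Syne1, listed at 40491 bases, turned from 0.58 to -0.09. Markers of excitatory cortical neurons had 3 of 14 higher and 0 lower (Cux2 and Rorb among them) and a median of 0.18, which was 0.07 without Alt 1.

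**Figure D4:**
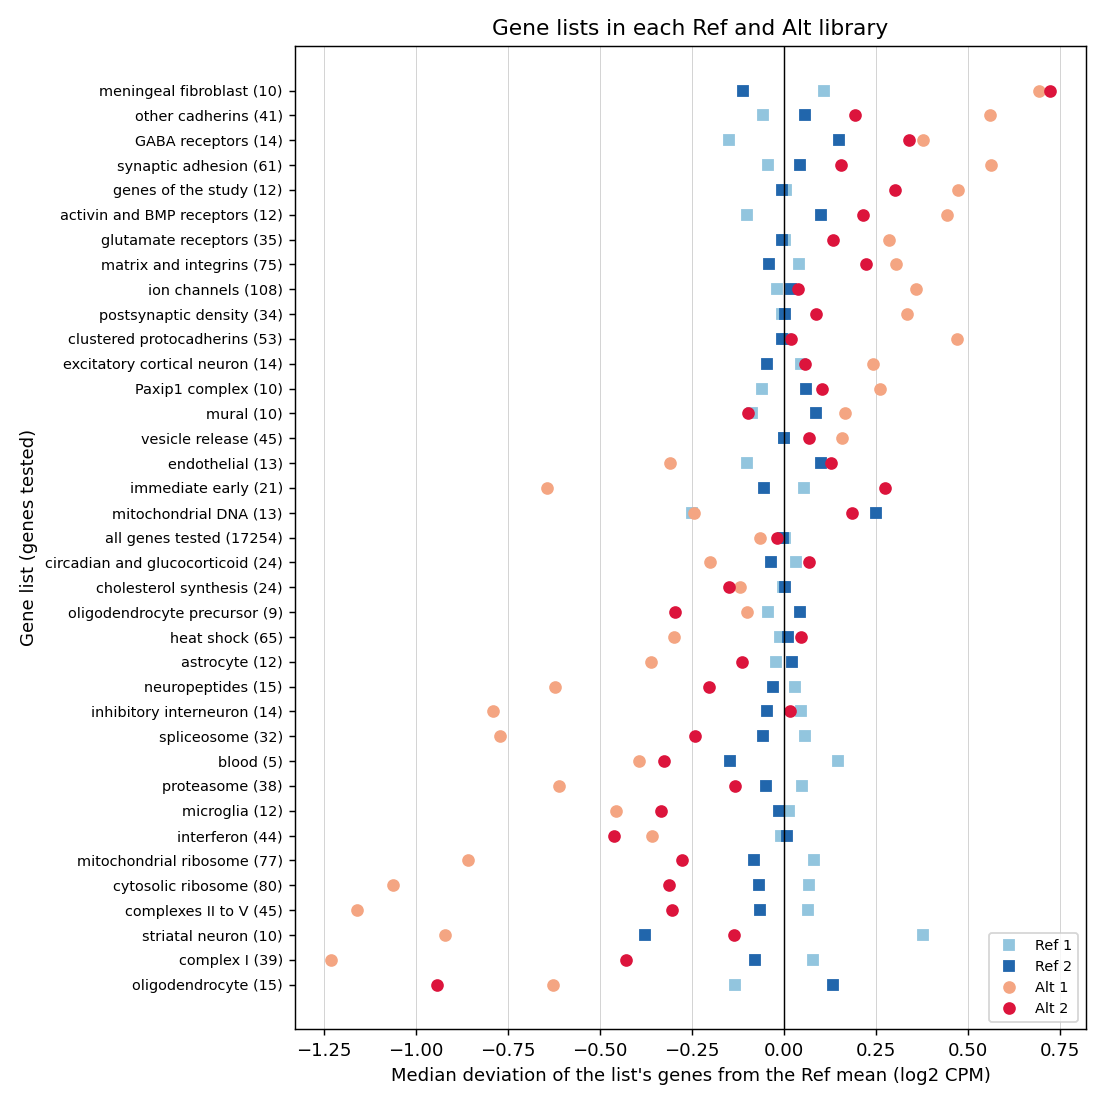
The median deviation of each gene list from the Ref mean in log2 CPM (x axis) in Ref 1, Ref 2 (squares), Alt 1 and Alt 2 (circles), with the number of genes tested in brackets; lists are ordered by their median fold change. Alt 1 lies farther from 0 than Alt 2 in the ribosome and respiratory lists, the 2 lie close together for GABA receptors and meningeal fibroblast markers, and Alt 2 lies farther out for oligodendrocytes.

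Of the 12 genes that the study follows in the mouse PFC or in its account of the lncRNA, 4 were higher and 0 lower. Ttc28, a large tetratricopeptide protein of cell division, was at 28.6 and 26.0 CPM in Ref and at 54.0 and 40.4 CPM in Alt, above the Ctr range of 17.6 to 25.7 CPM. It rose 1.73-fold (log2 fold change 0.79 ± 0.24) and was the 1 stable gene of the list. Acvr2b, an activin receptor, was at 5.22 and 4.09 CPM in Ref and 11.4 and 6.75 CPM in Alt (0.96 ± 0.42). Gabrb2 was at 128.8 and 174.5 CPM in Ref and 342.6 and 192.6 CPM in Alt, and the AMPA receptor gene Gria2 at 567.5 and 679.7 against 915.3 and 749.7 CPM. These 3 rose with all libraries and did not separate without Alt 1. Without the test, both Alt libraries also lay above both Ref libraries in Cntnap3, a contactin-associated adhesion protein, at 5.47 and 4.03 CPM in Ref, 7.67 and 8.53 CPM in Alt and 2.56 to 4.42 CPM in Ctr. Its change was 0.77 ± 0.39 (edgeR unadjusted p 0.0691), which did not pass the threshold. Gria1, Gria4 and Gabra3 had changes of 0.33, 0.32 and 0.34 and did not pass.

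The genes of the proposed regulators did not pass the test. Zgpat was at 13.2 and 11.5 CPM in Ref and at 16.6 and 13.4 CPM in Alt (edgeR unadjusted p 0.315), although both Alt libraries lay above both Ref libraries. Paxip1, the mouse counterpart of the gene beside which PAXIP1-AS1 lies in the human genome, was at 43.1 and 48.4 CPM in Ref and 45.3 and 46.0 CPM in Alt, Smc3 at 59.4 and 68.5 against 63.8 and 66.5 CPM, and Cebpb at 11.03 and 6.21 against 10.4 and 11.7 CPM. In a list of Paxip1, the KMT2C/D complex and Zgpat, 3 of 10 tested genes were higher. They were the histone demethylase gene Kdm6a, the methyltransferase gene Kmt2d and the coactivator gene Ncoa6. Of these, Ncoa6 also separated without Alt 1 and Kdm6a after the length correction. Receptors of the activin and BMP family had 4 of 12 higher and 0 lower (median 0.31), and 2 higher without Alt 1. Acvr1c was at 43.3 and 57.4 CPM in Ref and 156.0 and 75.6 CPM in Alt, and Bmpr2 at 352.2 and 516.0 against 974.5 and 664.1 CPM. Both are stable genes, and Acvr2a completes the 4 with Acvr2b.

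Because ZGPAT is described as binding a GA-rich motif, promoter windows were searched on both strands for GGAGGAGA, GGAGGAAA, GGAGAAGA and GGAGAAAA, which can overlap one another. Windows of 300 bases around a start site were taken from RefSeq on GRCm38.p6, a build that the count table does not state. Of 801 higher protein-coding genes with a window, 140 (17.5%) held a match, against 155 of 1129 lower genes (13.7%), 1637 of 11444 protein-coding genes tested (14.3%) and 11.9% of all 32851 windows. A gene counted when any of its windows matched, and the number of windows per gene was not evened out. The shares of genes are therefore not strictly comparable, and the share of windows has another unit. A match is a string of letters and was not tested for binding. The study placed its ZGPAT motifs upstream of human CNTNAP3 and tested them in human cells, over a stretch longer than 300 bases. The mouse Cntnap3 window does not cover that stretch, so it says nothing about those sites. The windows below show a gene that rose with several matches (Nexmif, chrX:104201135-104201434, minus strand), the GABA receptor gene whose match lies in 1 of its 3 windows (Gabrb2, chr11:42420524-42420823, plus strand), a gene that fell with a match (Ctss, chr3:95526536-95526835, plus strand) and Cntnap3 (chr13:64903839-64904138, minus strand), whose window held none. They were picked after the matches were counted, and capitals mark the matches, read 5′ to 3′ along the gene's strand.
Nexmif: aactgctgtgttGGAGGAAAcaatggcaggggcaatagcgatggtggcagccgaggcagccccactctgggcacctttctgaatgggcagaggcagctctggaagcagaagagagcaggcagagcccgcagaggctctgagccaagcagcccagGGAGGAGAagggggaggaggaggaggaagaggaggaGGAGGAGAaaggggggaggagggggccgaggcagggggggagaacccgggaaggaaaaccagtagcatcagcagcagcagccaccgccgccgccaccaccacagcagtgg
Gabrb2: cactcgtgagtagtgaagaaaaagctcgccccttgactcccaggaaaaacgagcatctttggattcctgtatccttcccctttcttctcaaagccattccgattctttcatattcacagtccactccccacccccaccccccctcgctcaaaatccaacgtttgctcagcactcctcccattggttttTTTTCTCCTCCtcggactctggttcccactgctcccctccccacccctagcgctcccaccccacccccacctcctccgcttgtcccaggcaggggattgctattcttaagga
Ctss: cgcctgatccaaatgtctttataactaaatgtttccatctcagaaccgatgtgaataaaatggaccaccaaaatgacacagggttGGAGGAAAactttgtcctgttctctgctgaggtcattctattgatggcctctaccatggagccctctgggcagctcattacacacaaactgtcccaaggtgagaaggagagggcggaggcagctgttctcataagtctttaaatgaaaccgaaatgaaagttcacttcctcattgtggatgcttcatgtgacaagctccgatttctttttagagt
Cntnap3: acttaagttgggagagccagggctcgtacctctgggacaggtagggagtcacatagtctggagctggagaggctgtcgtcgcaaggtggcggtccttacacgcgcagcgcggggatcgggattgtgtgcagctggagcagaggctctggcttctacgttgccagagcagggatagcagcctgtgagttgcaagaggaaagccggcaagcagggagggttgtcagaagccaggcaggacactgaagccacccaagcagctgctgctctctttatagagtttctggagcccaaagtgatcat
The 3 matches of Nexmif lie on the gene's own strand, and those of Gabrb2, 2 overlapping ones, on the opposite strand.

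Col1a2, Col1a1 and Col12a1 rose in both Alt libraries. Col1a2 and Col1a1, the chains of type I collagen that fibroblasts of the meninges make, were at 29.7 and 24.6 against 45.0 and 54.4 CPM, and at 10.3 and 7.70 against 18.4 and 20.9 CPM, in Ref and Alt. Alt 2 was the highest library for both. They rose by 0.87 ± 0.22 and 1.12 ± 0.35 and were the 2 higher of 10 meningeal fibroblast markers, whose median was 0.73, with 0.69 in Alt 1 and 0.72 in Alt 2. Without Alt 1, 3 of the 10 were higher, and Col1a1 did not separate without Ref 2. The markers' summed level overlapped between the groups (470.3 and 371.8 CPM in Ref, 360.0 and 593.8 CPM in Alt), and Ptgds alone was at 79.3 CPM in Alt 1 and 321.9 CPM in Alt 2. Col12a1, a collagen of fibril surfaces, rose by 1.23 ± 0.29. Over matrix and integrin genes, 8 of 75 were higher and 1 (Itga3) lower, with a median of 0.26, where 6.53% of all tested genes were higher. Without Alt 1, 7 were higher and 2 lower. After the length correction 5 were higher and 2 lower and the median was 0.14, against 6.43% and 6.25% of all genes. The meninges cover the PFC, and how much of them each dissection held was not tested.

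Endothelial markers split, with Vwf and Kdr higher and Ly6c1 and Esam lower among 13. This split did not hold after the length correction, with 1 higher and 0 lower. The list's median was 0.11 without Alt 1 and -0.31 without Alt 2. Mural cell, choroid plexus and cholesterol synthesis genes had 0 members that separated among 10, 3 and 24 tested. These counts are at an unadjusted p of 0.05 in edgeR. Without Alt 1, 1 mural gene and 2 cholesterol synthesis genes separated. Of 5 blood genes Hbb-bs was lower. After the length correction 0 blood genes were lower and 1 was higher, and the list's median moved from -0.43 to -0.003. Heat shock genes had 4 higher (Dnajb14, Hspa4l, Dnajc13 and Dnajc6) and 6 lower of 65, with a median of -0.20 that was -0.30 in Alt 1 and 0.05 in Alt 2. These counts are near the 6.53% and 8.75% of all genes, and without Alt 1, 0 were higher and 2 lower in edgeR.

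Transcripts typical of liver were present in both Alt libraries at low level. Alb, the serum albumin gene, had 6 and 0 counts in Ref 1 and Ref 2 and 82 and 206 counts in Alt 1 and Alt 2, with 0 to 6 counts in Ctr. Serpina3k, a serine protease inhibitor of plasma, had 2 and 0 counts in Ref and 30 and 78 in Alt, and Fgg, the fibrinogen gamma chain, 2 and 0 in Ref and 57 and 21 in Alt. All 3 separated, but Ref held too few counts for a fold change to be given. Fgg, which had up to 11 counts in Ctr, did not separate without Alt 1 or without Ref 2, and Serpina3k did not without Alt 2. Where these transcripts come from was not tested.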

How the data were processed

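Poly(A)-selected RNA from the PFC was sequenced from TruSeq libraries in 3 Ctr, 2 Ref and 2 Alt samples, grouped by their labels. The authors deposited raw counts per gene without normalization, with TPM and FPKM values and gene lengths in the same table; the deposited TPM and FPKM values were read only to check their unit. The submitters' processing notes name STAR and featureCounts and the human build hg19, although the gene identifiers are mouse Ensembl ones. The mouse build, annotation and strand setting are not given in the sources used here, so coordinates are printed as listed, and genes that overlap on opposite strands may share reads.

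The tests were run under R 4.3.3, using edgeR 4.0.16 (TMM, filterByExpr by group, glmQLFit and glmQLFTest on group means over all 7 libraries, which share 1 estimate of the spread) and DESeq2 1.42.0. FDR values of the edgeR fit with all libraries were adjusted by Benjamini-Hochberg over 17254 genes. Other edgeR fits were adjusted over the genes each of them tested, and DESeq2 over the genes left by its own filtering. Their FDR counts can therefore rest on other numbers of genes. Log2 CPM used a prior count of 2. The length correction removed a loess curve (span 0.3) of each gene's deviation on length. The script was tested on simulated data. Medians of lists describe their genes and were not tested.

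Genes were named by rule: in each direction the 12 smallest p and the 6 widest gaps, up to 4 separating genes of each list, all genes of the study, and counts of 5 or fewer. Some genes that the rule would name are not reported here. The comparison, the lists and the rule were chosen with earlier results of these data known. Stable genes, promoter windows and liver transcripts were chosen after their values were seen. Same-numbered Ref and Alt libraries deviated with a correlation of -0.0886, so numbers were not treated as pairs. Alternatives covered the test, normalization, filter, length, replicate number, libraries in the fit and each library left out. The libraries held 16655697 to 20750857 counts, and at that depth genes with few counts are measured least precisely.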

Additional observations from a re-analysis of the deposited data

How the results depend on the processing

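The number of genes past an unadjusted p of 0.05 depended most on single libraries. Leaving out 1 library at a time gave 246 to 2190 higher genes and 544 to 3259 lower genes, with the lowest counts without Ref 1 and the highest without Alt 2, against 1127 and 1510 with all libraries. Past the 2-fold line the count ran from 366 without Ref 1 to 2615 without Alt 2, against 742. At an FDR of 0.05 the same fits called 0 to 2708 genes, the highest without Alt 2; the 2 genes without Ref 1 were Gm28438 and Igkv1-117. DESeq2 called 449 genes, edgeR without the low-count filter 850, the length correction 2 (Mbp and Mag), and RLE normalization, upper quartile normalization, the 4 Alt and Ref libraries alone and the replicate block each called 0. The FDR of Mbp ran from 2.84e-14 with DESeq2 to 0.544 with the block, while its unadjusted p stayed at or under 0.000218 in all 14 alternatives. The replicate numbers do not pair the libraries, and with the number as a block 645 genes were higher and 904 lower.

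Of 145 named genes that separated, 101 also did so without Alt 1, 137 without Alt 2, 94 without Ref 1, 128 without Ref 2 and 114 after the length correction. Directions turned for Paxip1, which did not pass in any fit, with log2 fold changes of 0.033 under DESeq2 and RLE normalization, 0.026 under upper quartile normalization and 0.004 with the 4 libraries alone, and of -0.095 to 0.091 with 1 library left out (0.019 without Alt 1, 0.091 without Ref 2). Smc3 ran from -0.083 without Ref 1 to 0.141 without Ref 2, and Syne1 turned to -0.089 with the length correction. List medians ran from -0.801 without Alt 2 to 0.02 without Alt 1 for inhibitory interneurons and from -0.296 to 0.058 for heat shock genes in the same fits, and turned to -0.084 for the postsynaptic density and 0.043 for neuropeptides with the length correction. Medians also turned for immediate early genes (0.285 without Alt 1), clock and glucocorticoid genes (0.077 without Alt 1), mural cells (-0.099 without Alt 1, -0.057 without Ref 1), endothelial cells (-0.309 without Alt 2), choroid plexus (-0.264 without Ref 2) and mitochondrial DNA (0.121 without Alt 1, 0.328 without Ref 2, 0.409 with the length correction). Under DESeq2, RLE and upper quartile scaling the medians of immediate early and mitochondrial DNA genes, which lie near 0, came to 0.004 to 0.009, and with the length correction the immediate early median came to 0.072. The cause of these shifts was not tested. With 2 libraries a group, differences smaller than the spread between libraries could not be shown.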

Other observations

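After Alb, Serpina3k and Fgg had been seen among the widest gaps, 21 genes of hepatocytes and their plasma proteins were looked up in the counts. They summed to 49 and 23 counts in Ref 1 and Ref 2, to 48, 58 and 51 counts in Ctr, and to 424 and 626 counts in Alt 1 and Alt 2. Both Alt libraries exceeded both Ref libraries in 11 of the 21 genes, with Alb, Serpina3k and Fgg among them, and all Ref and Ctr libraries in 9. Over all tested genes both Alt libraries lay above both Ref libraries in 21.6%, a share taken on CPM rather than counts. Apoa1, the main protein of high-density lipoprotein, had 26 and 12 counts in Alt and 0 in every other library, Ambp 24 and 16 against 0, and the cytochrome gene Cyp3a11 12 and 16 against 0. The urinary protein gene Mup20 had 70 counts in Alt 2 and 0 in all others, while Cyp2e1 had 59 in Alt 1 and 10 in Alt 2, with up to 17 in Ctr. The list was not tested as a list.

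Besides Rn18s, the long noncoding RNA Malat1 and Lars2, a mitochondrial leucyl-tRNA synthetase gene, were highest in Alt 1. Malat1 was at 68.7 and 74.4 CPM in Ref and at 260 and 110 CPM in Alt, and Lars2 at 53.5 and 84.9 CPM in Ref and at 607 and 184 CPM in Alt. In Ctr 1 to Ctr 3, Lars2 was at 101, 209 and 55.6 CPM and overlapped Alt 2. Its level went with that of Rn18s across the libraries. Rn18s was at 1480, 2100 and 590 CPM in Ctr, 718 and 961 CPM in Ref, and 10500 and 1990 CPM in Alt. Whether the Lars2 reads came from the synthetase transcript was not tested.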
